A study of Mus musculus with 6 samples.

Results

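The neurotrophin system was described in RNA-seq of 4T1 cells through 6 genes: the receptor genes Ngfr, Ntrk2 and Ntrk3, the ligand genes Bdnf and Ntf3, and the coreceptor gene Sort1. They are 6 of the 31854 rows of the count table, 1 row per symbol, and were chosen by name from earlier results of these same samples, in which Ngfr stood among the genes with the largest difference. Their differences between the groups are therefore given as a description, with no test. The cells were 4T1, a mouse mammary carcinoma line grown in DMEM with fetal bovine serum. The 3 control samples carried the empty pLVX vector (labelled WT), and the 3 LINC01133 samples carried that vector expressing LINC01133, which is a long noncoding RNA of human origin; libraries were made from total RNA. The labels do not say whether either group was a clone or a pool, or whether the 3 samples of a group were separate cultures, and the p-values therefore reflect the spread among the 6 libraries, possibly a technical one. The groups thus differ in the vector and possibly in cell line history, which cannot be told apart here, and "higher" and "lower" below only compare them.

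Neurotrophins are secreted growth factors, BDNF and the products of Ntf3 and Ntf5 among them, that keep neurons alive and shape their connections. Each binds a Trk receptor tyrosine kinase (such as TrkB from Ntrk2 and TrkC from Ntrk3), and all bind the p75 neurotrophin receptor, p75NTR, which is encoded by Ngfr and has a death domain in place of a kinase. Uncleaved proneurotrophins bind p75NTR together with sortilin, the product of Sort1. Outside neurons p75NTR marks neural crest derivatives, Schwann cells and basal epithelial cells of the mammary gland.

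In the LINC01133 libraries, p75NTR mRNA was present with almost no TrkB or TrkC mRNA, and sortilin mRNA was low. Ngfr had no read in any control library and 71.4 to 75.9 CPM (counts scaled to TMM-adjusted library sizes) with LINC01133. Bdnf lay between 31.4 and 33.9 CPM in all 6 libraries. Sort1 went from 10.8 ± 0.741 to 0.784 ± 0.131 CPM, and Ntf5, a ligand gene not among the 6, from 0.446 ± 0.0954 to 3.24 ± 0.126 CPM (SD, n = 3).

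Total counts ran from 25521469 to 33877549 per library, and 3 counts in a library, the limit that a count of 0 allows, correspond to 0.0827 to 0.128 CPM. Such limits, and the intervals below, cover counting error only. Ribosomal RNA precursor (Rn45s) took 25.4 to 27.9% of control counts and 21.0 to 23.0% of LINC01133 counts. Over the 14116 genes that passed a filter on low counts, 44.5% were called higher and 40.5% lower with LINC01133, so that a call alone sets no gene apart (edgeR's quasi-likelihood test, Benjamini-Hochberg adjusted p under 0.05). With library size as the sole scaling, the median over all tested genes shifted by 0.24 on the log2 scale and 7847 genes were called higher and 4228 lower, in place of 6280 and 5710.

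Promoter sequences are shown for Ngfr and Ntrk2, which had no control read, and for Bdnf, which was read at a like level everywhere, to set their CpG content side by side. Each runs 5′ to 3′ on the gene's strand from 250 bases before to 50 after a RefSeq transcript start on GRCm38.p6, with CpG dinucleotides in capitals. Ngfr lies at chr11:95587649-95587948 on the minus strand, Ntrk2 at chr13:58806319-58806618 and Bdnf at chr2:109694159-109694458, both on the plus strand; Bdnf has 7 such windows and the one with most CpG is shown.
Ngfr: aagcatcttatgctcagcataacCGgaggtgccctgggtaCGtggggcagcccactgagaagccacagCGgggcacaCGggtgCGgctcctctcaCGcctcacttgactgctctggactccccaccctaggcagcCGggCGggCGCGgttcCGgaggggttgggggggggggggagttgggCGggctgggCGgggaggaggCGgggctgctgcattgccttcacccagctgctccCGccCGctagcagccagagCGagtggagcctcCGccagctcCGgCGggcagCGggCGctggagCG
Ntrk2: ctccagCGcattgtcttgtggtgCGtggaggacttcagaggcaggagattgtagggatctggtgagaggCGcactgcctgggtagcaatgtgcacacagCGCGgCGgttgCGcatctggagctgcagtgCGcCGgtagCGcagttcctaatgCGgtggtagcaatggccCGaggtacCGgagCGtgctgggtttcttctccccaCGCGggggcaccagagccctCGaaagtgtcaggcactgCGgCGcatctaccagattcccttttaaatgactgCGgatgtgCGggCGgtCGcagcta
Bdnf: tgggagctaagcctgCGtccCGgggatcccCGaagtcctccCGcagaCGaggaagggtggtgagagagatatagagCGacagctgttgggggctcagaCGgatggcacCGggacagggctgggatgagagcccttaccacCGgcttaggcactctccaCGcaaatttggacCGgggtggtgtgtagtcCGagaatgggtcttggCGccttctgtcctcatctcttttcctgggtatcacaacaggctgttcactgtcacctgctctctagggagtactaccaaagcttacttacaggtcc
The Ngfr and Ntrk2 windows held 23 CpG each, more than 78.5% of the 32851 promoter windows of this length, whose median was 7. The Bdnf window shown held 13, and the 7 Bdnf windows held 2 to 13. The Ntf3 windows held 12 and 17. Ngfr and Ntrk2 thus had more CpG by count than any Bdnf or Ntf3 window. The ratio of CpG observed to that expected from C and G content was 0.61 for Ngfr and 0.83 for Ntrk2. It was 0.18 to 0.68 in the Bdnf windows, and 0.44 and 0.75 in those of Ntf3. By this ratio Ntrk2 was above all of them and Ngfr was not. The Ngfr window held 4 GC boxes (GGGCGG on either strand), starting 114, 72, 63 and 16 bases before the transcript start by the shown strand, and Ntrk2 held 1. At least 1 such match was in 35.7% of all windows and at least 4 in 5.49%. Neither window held a TATA box (TATAAA, in 13.6% of all windows), a CCAAT box (CCAAT, in 37.4%) or an E-box of the Zeb and Snail type (CAGGTG, in 20.2%) on either strand. An AP-1 site (TGANTCA, in 7.81% of all windows) and a cyclic AMP response element (TGACGTCA, in 1.79%) were also not matched in them, which says only that these letters are not there. The table's counts do not tell which Bdnf promoter was used.

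**Figure D1:**
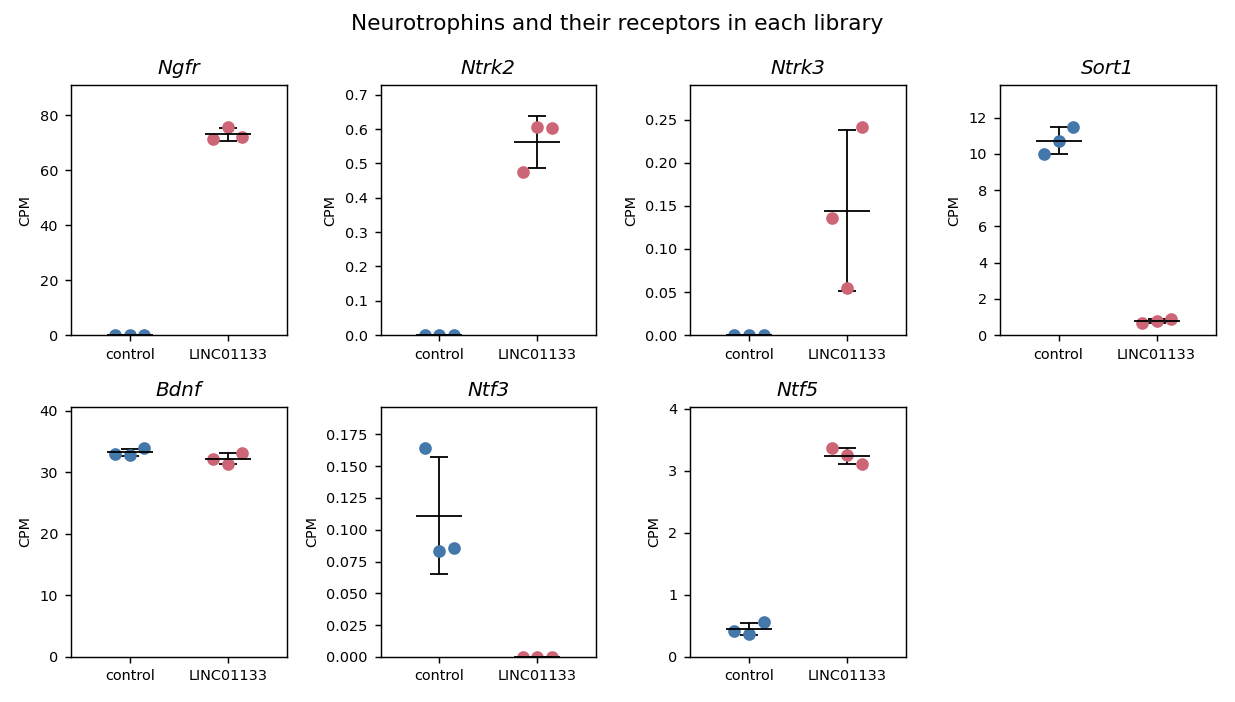
CPM of the 6 genes and Ntf5 in the 3 control (blue) and 3 LINC01133 (red) libraries; each panel has its own linear axis from 0. Points are libraries, and the black bar with whiskers is the mean ± SD. Ngfr was at 0 in the controls and above 70 CPM with LINC01133, while Ntrk2 and Ntrk3 never exceeded 0.607 CPM.

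Among the receptors, Ngfr (uc007lam.2, chromosome 11, 95568818 to 95587735 on mm10, with no other gene overlapping it in GENCODE M21) had 0, 0 and 0 counts in the controls and 2101, 2753 and 2386 with LINC01133. These were 71.4, 75.9 and 72.1 CPM, all 3 LINC01133 libraries lying close together. Their coefficient of variation was 3.35%, against 2.04% from counting alone. With the control group set at 3 counts over its 3 libraries, Ngfr was at least 1755-fold higher. No read in the controls was found for 319 of the 14116 tested genes (2.26%), whose median level with LINC01133 was 0.953 CPM; Ngfr ranked 3 among them. In the LINC01133 libraries its 21.5 ± 0.719 RPKM (CPM per kilobase of the table's gene length; SD, n = 3) was above 89.1% of all rows with a read. In bulk RNA, more cells with Ngfr and more Ngfr RNA per cell cannot be told apart.

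The Trk genes Ntrk2 and Ntrk3 were each without a read in the controls and near the detection limit with LINC01133. Ntrk2 (uc007quj.2, chromosome 13) had 14, 22 and 20 counts with LINC01133, or 0.476, 0.607 and 0.604 CPM, at least 13.6-fold above the control floor. Ntrk3 (uc009hxh.2, chromosome 7) had 4, 2 and 8 counts, at least 3.39-fold. Every LINC01133 library was thus above the controls for both genes, by a few reads for Ntrk3. Ntrk2 and Ntrk3 have other genes on both strands within their bounds. It is not stated whether counting used the strand, and strand would not separate genes on the same one. Such reads could therefore not be assigned to the receptor with certainty. Receptor forms with and without the kinase share these rows.

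Levels per length put Ngfr far above both kinase genes. With LINC01133, mean levels were 21.5 ± 0.719 RPKM for Ngfr, 0.0398 ± 0.00531 for Ntrk2 and 0.0220 ± 0.0143 for Ntrk3 (SD, n = 3). Ntrk2 and Ntrk3 overlapped in their library values. Ngfr made up 99.6 to 99.8% of the summed RPKM of these 3 genes, 265.8 to 434.3 times the sum of Ntrk2 and Ntrk3. Control libraries had no read of any of the 3.

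The coreceptor Sort1 (uc008qys.2, chromosome 3, 108284082 to 108361511) went the other way. It had 245, 257 and 270 counts in the controls and 19, 29 and 30 with LINC01133, or 10.0, 10.7 and 11.5 CPM against 0.645, 0.800 and 0.907 CPM. The groups were far apart, with every LINC01133 library below 1 CPM. The control level was 13.6 times that with LINC01133, and the per-length level went from 1.55 ± 0.107 to 0.113 ± 0.0189 RPKM (SD, n = 3). The genes Gm12523, on the other strand, and Gm43099, on the same strand, overlap Sort1. Reads of Gm12523 could not be told from those of Sort1 if strand was not used, and those of Gm43099 not by strand at all.

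Among the ligands, Bdnf (uc008lmd.1, chromosome 2, 109674700 to 109727007) was at a similar level in all libraries. It had 806, 791 and 794 counts, or 33.0, 32.9 and 33.9 CPM, in the controls and 945, 1138 and 1098 counts, or 32.1, 31.4 and 33.2 CPM, with LINC01133. The groups overlapped. The log2 ratio was -0.05 with TMM and RLE scaling gave the same direction, but it was 0.20 with library size as the sole scaling and 0.05 with upper-quartile scaling, so the sign of the difference depended on the scaling. The antisense gene Gm45346 overlaps Bdnf, and its reads could not be told from those of Bdnf if strand was not used. Ntf3 (uc012esx.1, chromosome 6) had 4, 2 and 2 counts in the controls and none with LINC01133, where 3 counts over the group would be 0.0304 CPM, at least 3.67-fold lower. Its control counts thus lay around the 3 counts that set the floor of a single library.

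Ntf5, the gene of the ligand also known as neurotrophin-4, was not chosen for the 6 and was tested. It had 10, 9 and 13 counts in the controls and 99, 118 and 103 with LINC01133, or 0.410, 0.375 and 0.555 CPM against 3.36, 3.25 and 3.11 CPM. It rose in 3 of 3 libraries beyond every control (log2 fold change 2.85, SE 0.248, adjusted p = 4.1e-21, edgeR). The summed level of Bdnf, Ntf3 and Ntf5 was 5.15 to 5.38 RPKM in the controls and 6.33 to 6.53 RPKM with LINC01133. Bdnf held 93.7 to 95.2% of this sum in the controls and 73.6 to 75.7% with LINC01133, and Ntf5 3.71 to 5.25% and 24.3 to 26.4%.

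**Figure D2:**
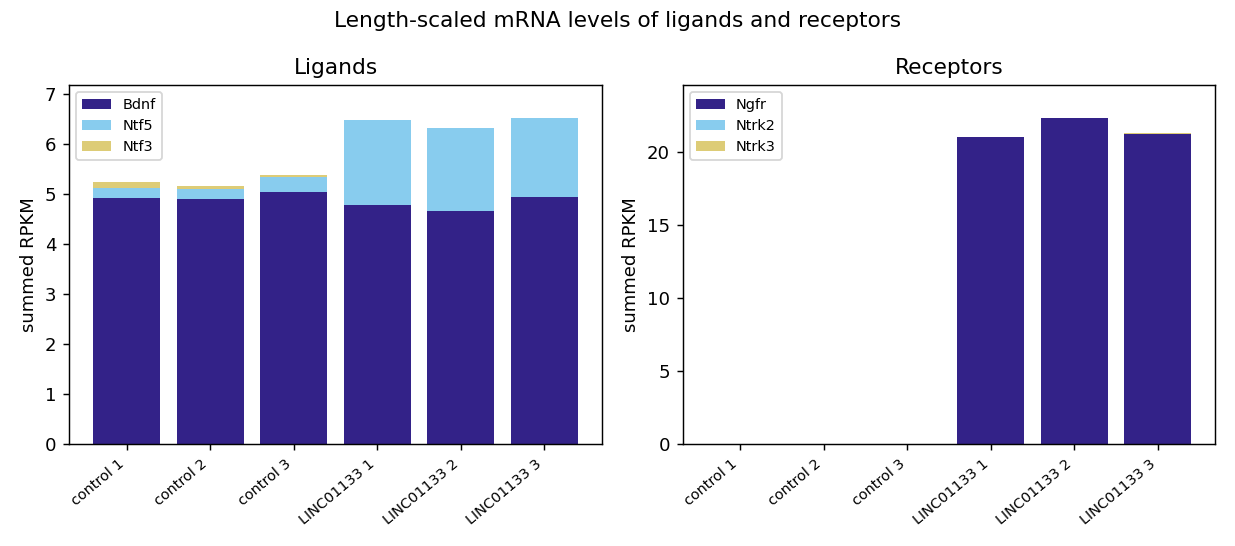
Summed RPKM of the ligand genes Bdnf, Ntf5 and Ntf3 (left) and the receptor genes Ngfr, Ntrk2 and Ntrk3 (right) in each library, stacked by gene on linear axes. The sums on the left were 5.15 to 5.38 in the controls and 6.33 to 6.53 with LINC01133; the receptor bars are almost all Ngfr, and the controls have none.

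Of the 6 genes, 4 passed the count filter (Ngfr, Ntrk2, Bdnf and Sort1), and Ntrk3 and Ntf3 did not. In the 4, the LINC01133 values lay wholly above the controls for Ngfr and Ntrk2, wholly below for Sort1, and overlapped for Bdnf. Over all tested genes the shares wholly above and wholly below were 44.5% and 40.5%, and since this contrast chose the genes nothing is read from their count. Only 3 of the 6, Ngfr, Bdnf and Sort1, reached 1 CPM in every library of a group.

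Predicted genes, with names of Gm and digits or ending in Rik, were left out of the search for like genes. The genes most like each of the 4 were found by the Euclidean distance of log2(RPKM + 0.1) over the 6 libraries, among 13406 tested genes. For Ngfr they were Cyba, a subunit of the NADPH oxidase (distance 0.280), Notum, a secreted Wnt inhibitor (0.320), the chloride channel gene Ano1 (0.478), the unnamed transcript AK148054 (0.501) and the protocadherin gene Pcdh1 (0.569). Their control counts summed to 0, 1, 0, 30 and 3, and their levels with LINC01133 were 17.8 to 20.2 RPKM. The nearest to Sort1 were Gnao1, Adra1d and Nxph4 (0.296 to 0.474), to Bdnf Ppp2r3a, Epg5 and Ppih (0.0894 to 0.120) and to Ntrk2 Rnf152, Sspo and Adamts8 (0.124 to 0.157). These are likenesses in level and pattern only. For Ntrk2, every level lay below the 0.1 RPKM added, so genes near 0 in all libraries come out close.

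The other genes of the pathway were taken from lists by role, chosen with earlier results of these data known, and the 6 genes are left out of their counts. The median log2 fold change of all tested genes was 0.05. Of them 44.5% were called higher and 40.5% lower, the background for each list and marker count below. Of 8 other receptors and coreceptors, 5 could be tested, and 2 rose and 3 fell (median -0.96). With no count filter 3 rose and 3 fell and the median was 2.36, so its sign depended on the filter. Nradd, a p75NTR-related membrane protein gene, had 596, 619 and 605 counts in the controls and 15, 16 and 11 with LINC01133, or 25.3 ± 0.789 and 0.428 ± 0.0893 CPM, a log2 fold change of -5.88 (SE 0.136, adjusted p = 1.4e-77, edgeR). Kidins220, a scaffold that binds Trk receptors and p75NTR, fell from 125.1 ± 1.38 to 54.1 ± 1.63 CPM (-1.21), and the sortilin relative Sorcs2 from 1.31 ± 0.189 to 0.671 ± 0.134 CPM (-0.96). Sorl1, a sorting receptor related to sortilin, had 33, 31 and 24 counts against 427, 498 and 407, rising from 1.22 ± 0.175 to 13.5 ± 1.12 CPM (3.46, adjusted p = 6.9e-51, edgeR). Per length, Sort1 was above Sorl1 in every control library, at 1.55 ± 0.107 against 0.176 ± 0.0252 RPKM, and below it in every LINC01133 library, at 0.113 ± 0.0189 against 1.95 ± 0.161 RPKM (SD, n = 3).

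The low-level receptor partners Rtn4r and Lingo1 were read mainly with LINC01133, unlike Sorcs2 above. Rtn4r, the Nogo receptor gene, whose product forms a complex with p75NTR and LINGO1 in neurons, rose from 2 counts in the controls to 60, and the ratio was 21.8 (95% interval 5.78 to 184.3). Lingo1 went from 1 count to 27, with a ratio of 19.6 (3.24 to 803.9), and did not pass the filter. Sorcs1 and Sorcs3 had no control read and at most 2 reads in a LINC01133 library.

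Proteases that cleave proneurotrophins or act on them outside the cell rose in 4 of 4 tested genes, of 9 in the list (median 2.34). Over all tested genes 44.5% were called higher. Furin, the proprotein convertase of the secretory route, rose by 1.49 on the log2 scale (SE 0.0306, adjusted p = 9.3e-84, edgeR), from 70.7 ± 2.17 to 197.9 ± 3.19 CPM. Plat, the tissue plasminogen activator, rose from 2.93 ± 0.241 to 26.9 ± 1.41 CPM (3.20) and the matrix protease Mmp3 from 0.264 ± 0.205 to 23.2 ± 0.704 CPM (6.43, or 7.26 without control replicate 2). The fourth was Mmp9 (0.95). Plasminogen itself (Plg) was not tested, with at most 8 counts in a library.

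Genes whose products shed p75NTR or cut it within the membrane went both ways. Of 6, 2 were higher and 4 lower (median -0.60), against 44.5% and 40.5% of all tested genes. The sheddase genes Adam10 and Adam17 rose (0.59 and 0.38). The gamma-secretase subunits Aph1a, Psenen and Aph1b fell (-1.72, -0.67 and -0.65), Aph1a from 25.0 ± 0.948 to 7.61 ± 0.354 CPM, as did Psen2, which encodes a catalytic subunit (-0.55).

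Genes of intracellular p75NTR partners showed no common direction, with 7 of 14 higher and 6 lower (median 0.08), or 8 and 2 by library size alone. With TMM scaling, 50% higher and 42.9% lower were near the 44.5% and 40.5% of all tested genes. Ngfrap1 (also Bex3), which encodes a p75NTR-associated death-signal protein, fell from 31.2 ± 0.898 to 16.4 ± 1.58 CPM (log2 fold change -0.93), and Zfp369, a zinc finger gene of the NRIF type, from 19.2 ± 0.526 to 9.86 ± 0.554 CPM (-0.97). Traf4 rose from 55.0 ± 0.800 to 88.9 ± 1.41 CPM (0.69). Bex1 had no read in any library.

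Adaptors that carry Trk and other receptor kinase signals were also mixed, with 11 of 22 higher and 10 lower (median 0.01), or 12 and 7 by library size alone. With TMM scaling, 50% higher and 45.5% lower were near the 44.5% and 40.5% of all tested genes. The decreases were the larger. Gab1, a docking protein, had 1027, 1019 and 1004 counts in the controls and 20, 12 and 11 with LINC01133, or 42.5 ± 0.375 and 0.448 ± 0.201 CPM, a log2 fold change of -6.59 (SE 0.118, adjusted p = 4.8e-91, edgeR). Irs1, the insulin receptor substrate, fell from 201.1 ± 4.49 to 24.4 ± 1.35 CPM (-3.05) and Shc4, a Shc-family adaptor, from 9.25 ± 1.03 to 2.67 ± 0.386 CPM (-1.79). Grb2 and Shc1, the adaptors that link receptors to Ras, fell less (-1.17 and -1.24). The highest rise was 1.40, in Frs3. Under each of the 4 scalings the direction of these 6 named adaptors was the same.

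Genes that neurotrophins induce in neurons were higher in 7 of 9 tested and lower in 1 (median 1.47), against 44.5% and 40.5% of all tested genes. Arc rose from 0.958 ± 0.167 to 27.5 ± 1.15 CPM (log2 fold change 4.84), Fos from 2.34 ± 0.358 to 43.2 ± 1.62 CPM (4.21) and Egr1 from 3.13 ± 0.282 to 38.8 ± 1.36 CPM (3.63). Many other stimuli induce these genes. The lower call, Vgf (-0.29), was lost in 10 of 14 alternative settings, among them without control replicate 3 and without each LINC01133 replicate.

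**Figure D3:**
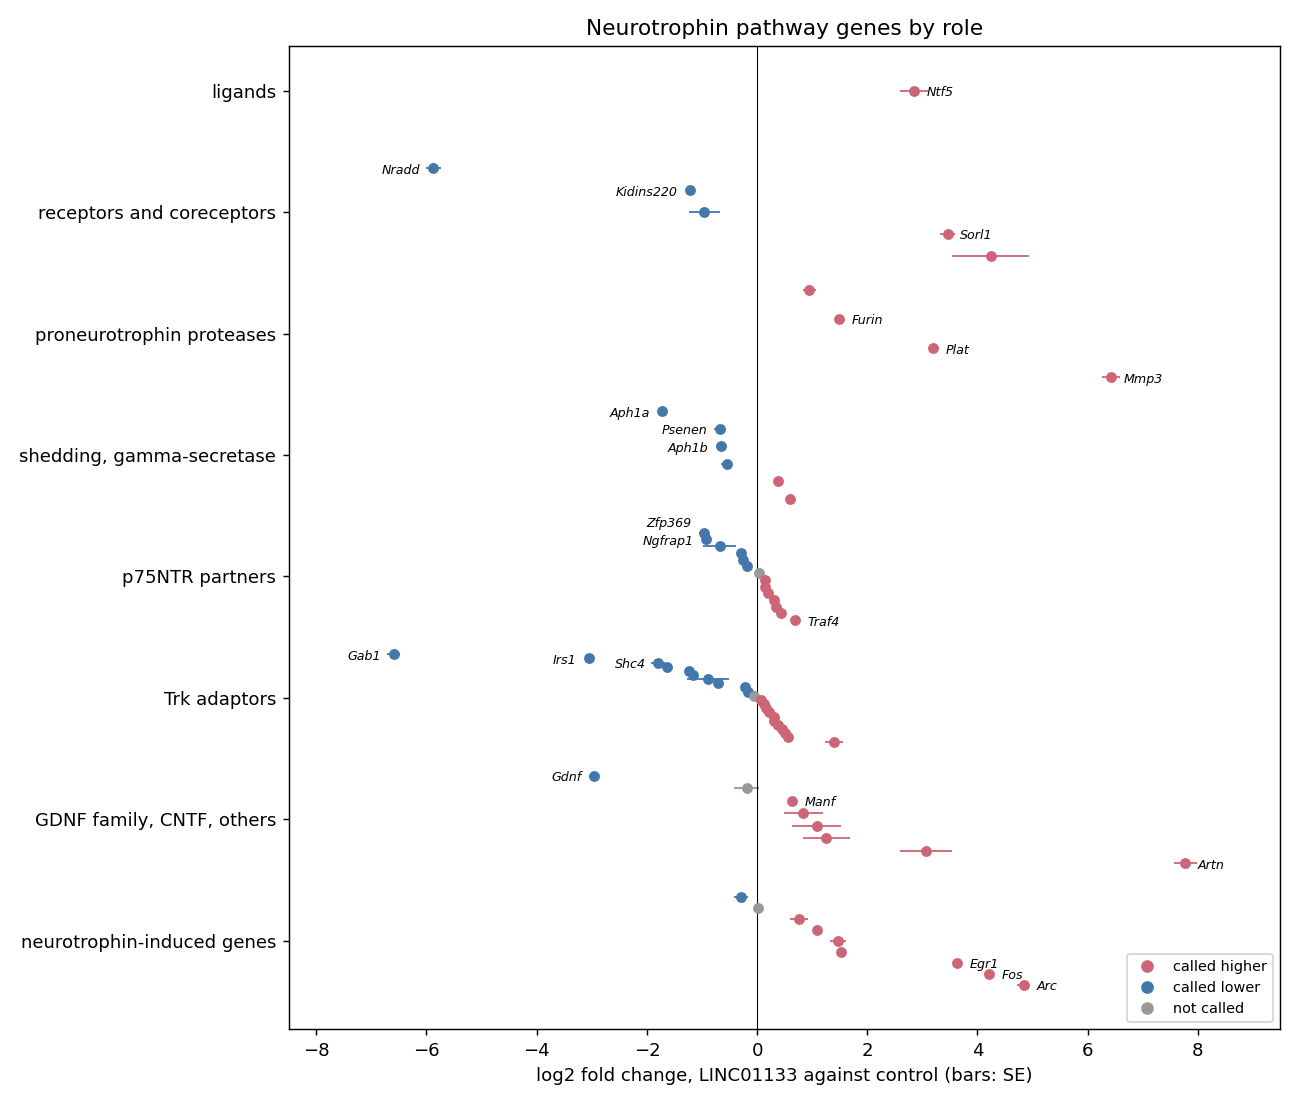
Log2 fold change (LINC01133 against control, edgeR, bars SE) of each tested pathway gene other than the 6, by role; red was called higher, blue lower and grey not called. Ret, with no control read, has no fitted value shown. Ntf5 and the proteases lie to the right, and adaptors and p75NTR partners on both sides.

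Markers of cell types that carry p75NTR, and of neurons, did not share a direction, and their part in these results was not tested. Schwann and neural crest markers summed to 5.45 to 6.44 CPM in the controls and 13.1 to 14.4 CPM with LINC01133, with 3 of 5 tested genes higher and 1 lower; Mbp rose from 0.850 ± 0.164 to 8.38 ± 0.267 CPM and Erbb3 fell (-0.64). Sox10, picked out after its values were seen, had 9 and 132 counts. Mammary basal markers went down while Ngfr went up, summing to 11.5 to 12.5 and 3.53 to 4.50 CPM, with 5 of 7 tested lower and 1 higher, Trp63 falling from 4.88 ± 0.714 to 1.08 ± 0.543 CPM and Acta2 from 2.14 ± 0.107 to 0.843 ± 0.0672 CPM. Neuron markers summed to 7.98 to 8.89 and 7.04 to 8.27 CPM, nearly all Tubb3; 1 of 2 tested was higher (Rbfox3, 0 to 68 counts) and Tubb3 lower (-0.34, a call lost with library size as the sole scaling), and Elavl4 and Stmn2 were at 0 in the controls. Melanocyte markers summed to 5.63 to 6.39 and 8.97 to 9.74 CPM, almost all Mitf (0.62, the 1 gene tested), with Dct at 0 in all libraries, Tyr at 0 in the controls and Tyrp1 at 0 with LINC01133.

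The label of a mammary carcinoma line was checked in the same way. Epithelial and mammary carcinoma markers summed to 152.9 to 160.8 CPM in the controls and 422.2 to 430.8 CPM with LINC01133. Of 8 tested, 7 were higher and 1 lower. Krt8 rose from 145.3 ± 3.82 to 217.0 ± 3.03 CPM and Krt18 from 2.06 ± 0.213 to 158.2 ± 4.45 CPM. Spint1 rose from 3 to 3705 counts, and the lower gene, Krt7, fell from 7.59 ± 0.68 to 2.31 ± 0.101 CPM. Epcam, Esrp1 and Grhl2 had no read in the controls and Cdh1 had 4, so these defining epithelial markers were at or near 0 there, and they stayed low with LINC01133 (Epcam 0.794 ± 0.376 CPM). Fibroblast and mesenchymal markers summed to 257.3 to 265.3 and 19.5 to 20.3 CPM, with 5 of 6 tested lower and 1 higher. Pdgfrb fell from 106.7 ± 2.47 to 0.775 ± 0.251 CPM and Pdgfra from 60.2 ± 2.18 to 13.6 ± 0.434 CPM, and these had the highest means over the 6 libraries together. Twist1, a transcription factor of mesenchymal cells, had 1757 control counts and none with LINC01133, at least 805.3-fold lower. Prrx1, picked out after its values were seen, fell from 66.6 ± 2.60 to 0.109 ± 0.113 CPM. The 1 higher gene was Dcn (1 and 409 counts). Lum had no read in any library, and Col3a1 and Thy1 had none in the controls and at most 4 in all with LINC01133. The level of the LINC01133 transcript was not analysed here, so it gives no check of the labels.

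**Figure D4:**
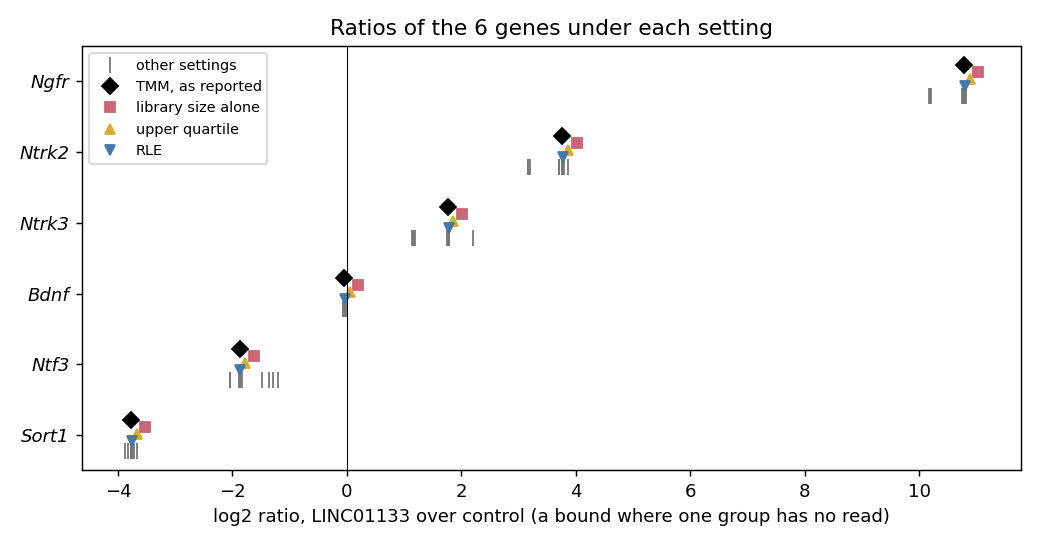
Log2 ratio of LINC01133 over control for the 6 genes under the scaling used (black diamonds), 3 other scalings and the other settings (grey ticks). Where a group has no read (Ngfr, Ntrk2, Ntrk3, Ntf3) the ratio is a bound against 3 counts over that group. Bdnf alone crosses 0.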

How the data were processed

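The authors deposited 1 table of raw read counts, a column per sample, beside the length of each gene, per the file headers. The submitters' processing notes name bcl2fastq and the mm10 build; for the aligner, counter and strand setting the sources used here give nothing. Columns were tied to samples by title. Where rows shared a symbol, the highest mean kept it.

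Tests were edgeR's quasi-likelihood test across all genes (edgeR 4.0.16, R 4.3.3, TMM, filterByExpr, robust, 14116 genes, threshold 0.05). The test was also run on simulated data in which few genes differed. In the real data 44.5% of tested genes were called higher and 40.5% lower. The simulated data therefore do not check the scaling or the calls in these libraries. The common biological coefficient of variation was 0.0237. SE is the log2 fold change over the square root of F. CPM uses TMM-scaled library sizes and RPKM the table's length. A group with no read is set at 3 counts over the group. Ratios with 1 to 3 counts have exact 95% intervals.

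The members and lists were chosen with earlier results of these data known. Named genes were the 6, their family, up to 3 called genes of at least 1 CPM with the largest change per pathway list, and the 2 highest and the 0-count markers. Mmp9, Adam10, Adam17, Psen2, Bex1, Plg, Grb2, Shc1, Frs3, Vgf, Sox10, Cdh1, Spint1, Krt7, Prrx1, Dcn and, in the closing section, Ret, Gfra1 and Gfra3 are outside that rule and were chosen after their values were seen. A few listed genes are not reported here and are left out of the list counts. Of the other list symbols, Ncstn, Irs2, Cntf and Pmel are not analysed here, and Bex3 was matched as Ngfrap1. Promoter sequences are from RefSeq (GRCm38.p6) and positions from GENCODE M21, both of the mm10 assembly; 4 of the 6 genes had a promoter window. Alternatives were scaling by RLE, by upper quartile or by library size only, no filter, a CPM filter, DESeq2 1.42.0, limma voom (limma 3.58.1), a replicate block and each library left out. Figures used matplotlib 3.10.9.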

Additional observations from a re-analysis of the deposited data

How the results depend on the processing

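Over 14 alternative settings, Bdnf alone of the 6 genes changed sign (log2 ratio -0.05 as reported, 0.20 with library size as the sole scaling and 0.05 with the upper quartile). The bounds ran from 10.17 to 11.02 for Ngfr, 3.16 to 4.01 for Ntrk2, 1.13 to 2.20 for Ntrk3 and -2.05 to -1.21 for Ntf3, and Sort1 from -3.88 to -3.52; a group of 2 libraries sets a weaker bound by construction. Counts of called genes stayed within 1.5 times of 6280 higher and 5710 lower, with 6228 to 6379 and 5632 to 5669 when 1 library was left out. Called pathway genes numbered 41 higher and 25 lower, and 38 to 41 and 23 to 24 with a library left out. By library size alone they numbered 44 and 17. The shares over all tested genes were 44.5% and 40.5%. Since the lists were chosen with earlier results of these data known, nothing is read from these counts. With the CPM filter 1 receptor or coreceptor gene was called higher in place of 2; GDNF-family genes went from 7 to 2 with the CPM filter, since fewer genes are tested. By library size alone the p75NTR partners called lower went from 6 to 2; the cause was not tested. With the replicate number as a block, genes called higher numbered 6188 and genes called lower 5629. Deviations of same-numbered libraries correlated at -0.03 to 0.00, so no shared deviation by number was seen. Whether same-numbered samples were handled together cannot be told from this. Depth limits Ntrk3 and Ntf3, which rest on 14 and 8 reads in all.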

Other observations

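The other neurotrophic factor genes were read as a list of 15, of which 9 could be tested. Of these, 7 were higher and 1 lower (median log2 fold change 1.08), against 44.5% and 40.5% of all tested genes. With the filter of 1 CPM the list had 2 higher and 1 lower (median 0.26). Artn, the artemin gene of the GDNF family, had 0, 4 and 2 counts in the controls and 545, 693 and 658 with LINC01133, a log2 fold change of 7.77 (SE 0.209, adjusted p = 7.6e-70, edgeR); without control replicate 2 it was 8.70. Gdnf fell from 29.0 ± 2.24 to 3.71 ± 0.502 CPM (-2.96, SE 0.0870, adjusted p = 2.5e-65, edgeR). Per length, Gdnf was at 5.95 ± 0.46 and Artn at 0.0348 ± 0.0345 RPKM in the controls, and Gdnf at 0.762 ± 0.103 and Artn at 7.95 ± 0.285 RPKM with LINC01133 (SD, n = 3), the reverse order. Ret, the shared receptor kinase, had no control read and 37, 35 and 25 counts with LINC01133, at least 23.5-fold higher, and the coreceptor Gfra1 rose from 8 to 96 counts. Gfra3, the artemin coreceptor gene, had no control read and 4, 14 and 0 counts with LINC01133, and was not tested. Manf, a neurotrophic factor of the endoplasmic reticulum, rose from 71.3 ± 2.69 to 111.2 ± 1.93 CPM (0.64).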
